A study of Mus musculus with 2 samples.

Results

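Cytosolic ribosomal protein genes encode the protein components of the ribosomes that translate messenger RNA in the cytoplasm. The genes described here were every symbol of the count matrices that begins Rpl or Rps followed by a number, together with the stalk proteins Rplp0 to Rplp2 and Rpsa, without symbols ending in -ps and without the S6 kinases, that held 200 or more counts summed over both sections. Of 93 matching symbols among the 54658 of the matrices, 86 passed; 14516 symbols of all kinds held 200 or more counts. The 86 comprise 49 large-subunit and 37 small-subunit symbols, and 5 of them (Rps4l, Rps3a2, Rps3a3, Rps12l1 and Rpl6l) are pseudogenes in the RefSeq annotation. Rps19bp1, which encodes an Rps19-binding protein, and Rpl7l1, a ribosome assembly factor, match by name without being structural proteins of the mature ribosome. The members were thus chosen by their summed counts, which were 488 for Rps3a3, 886 for Rpl6l and 953 for Rps12l1 just inside the threshold, and 35 for Rpl3l, 16 for Rpl39l and 4 for Rpl10l just outside it. The other 4 symbols left out, Rpl39, Rpl10, Rps4x and Rpl36a, are X-linked and had 0 counts in both sections, as had all 2041 X-chromosome genes of the annotation that the matrices list.

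The counts came from spatial transcriptomics of frozen mouse intestine, in which RNA is captured on an array of barcoded spots under a tissue section 10 µm thick. The study had 2 sections, 1 from wild-type mice and 1 from Dpf2 KO mice, both taken after 10 Gy of X-ray irradiation, so neither section is unirradiated. DPF2 is a subunit of the BAF chromatin remodelling complex. The age and number of animals, the time after irradiation, the allele and the cells in which Dpf2 was deleted were not given in the sources used here. With 1 section per genotype no difference between the sections can be tested, genotype and section cannot be told apart, and every interval below is a 95% interval for counting error only.

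The wild-type-labelled section held 39824941 counts in 50970 spots and the knockout-labelled section 89754886 counts in 88056 spots, with medians of 721 and 932 counts per spot. The lists of spots share 45557 array position names. Dpf2 itself stood at 23.6 counts per 1000000 counts (CPM) in the wild-type-labelled section and 26.0 CPM in the knockout-labelled section, so its level does not separate the labels, and the sections are called by their labels throughout. All 18 Paneth cell markers and all 24 villus enterocyte markers were detected in both sections. The Paneth list took 11.5% of counts in the wild-type-labelled section and 0.613% in the other, and the villus enterocyte list took 0.0919% and 4.44%.

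Ribosomal proteins are needed in nearly equal numbers, and their genes are transcribed at high levels in growing cells. Their messenger RNAs usually begin with a C followed by an uninterrupted run of pyrimidines, the terminal oligopyrimidine (TOP) start, through which the kinase mTORC1 and the RNA-binding protein Larp1 control their translation and stability. In intestinal epithelium ribosome production is highest in the dividing cells of the crypt and declines as cells move onto the villus. Free ribosomal proteins such as Rpl5 and Rpl11 also bind Mdm2 and restrain the degradation of p53, which links ribosome assembly to the damage response.

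The start sites of some members from the low end, the middle and the high end of the range of section differences are printed. They show what the TOP start looks like and where it is missing. Most of those printed carry a TOP start, whereas most members with a promoter entry do not. Rpl10a and Rps19, which are not printed, were also among the lowest and had no TOP start at the annotated positions. Each sequence holds 10 bases before and 20 bases from the RefSeq start on GRCm38.p6, 5′ to 3′ on the gene's strand. Capitals mark a C with 4 or more further pyrimidines at the start itself, except in Rps27l, where they mark the letters CCGGAAG, which contain the core recognised by ETS-family factors.
Rps27 (chr3:90213629-90213658, minus strand): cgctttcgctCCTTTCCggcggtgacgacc
Rps27rt (chr9:114982720-114982749, minus strand): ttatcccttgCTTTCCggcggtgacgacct
Rps18 (chr17:33955646-33955675, minus strand): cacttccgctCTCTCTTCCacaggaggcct
Rpl15 (chr14:18270967-18270996, minus strand): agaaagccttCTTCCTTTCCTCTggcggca
Rps6 (chr4:86857348-86857377, minus strand): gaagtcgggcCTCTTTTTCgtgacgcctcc
Rps7 (chr12:28635934-28635963, minus strand): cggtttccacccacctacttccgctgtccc
Rps27l (chr9:66946076-66946105, plus strand): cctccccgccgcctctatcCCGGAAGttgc

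A promoter entry existed for 61 of the 86 members. A TOP start by the rule above was annotated for 15 of the 61 members (24.6%) and for 813 of 27025 genes (3.01%). The letters CCGGAAG, searched on both strands in the window from 250 bases before to 50 after the start, occurred in 39.3% of members and 9.93% of genes. AAGATGGC, the letters bound by Yy1, occurred in 9.84% of members and 3.19% of genes, and TATAAA in 9.84% and 15.7%. These matches depend on where RefSeq places the start, since 1 base of displacement can remove a TOP match.

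The 86 genes together took 7.02% of all counts in the wild-type-labelled section (7.01 to 7.03%) and 3.57% in the knockout-labelled section (3.57 to 3.58%), a log2 ratio of -0.97 (1.96-fold lower). The median spot held 47 ribosomal protein counts in the former and 30 in the latter, although its total was higher in the latter. When each section was divided by position into 4 parts of nearly equal spot number, the share was 6.40, 6.74, 6.63 and 8.24% in the wild-type-labelled section and 3.72, 3.65, 3.75 and 3.27% in the knockout-labelled section. The 2 sets of parts did not overlap. Among spots of like depth the log2 ratio lay between -0.77 (300 or more and under 600 counts per spot) and -1.03 (1000 or more and under 2000). Large-subunit symbols stood at 3.84% and 1.95% (log2 ratio -0.98) and small-subunit symbols at 3.19% and 1.63% (-0.97), so the subunits shifted by nearly the same amount. In such sums over a tissue, fewer cells with many ribosomes and less ribosomal protein RNA per cell cannot be told apart. A list of 32 proliferation genes took 0.272% of counts in the wild-type-labelled section and 0.139% in the knockout-labelled section. The proliferation, Paneth and villus marker shares thus all differed along with the ribosomal protein share, and their part in its difference was not tested.

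Nearly all members were lower in the knockout-labelled section. The member log2 ratios had a median of -0.98 and quartiles of -1.34 and -0.79, against a median of -0.18 over all 14516 genes with 200 or more counts. Of the 86, 84 were below 0 (57.2% of all genes were), 79 were lower by 1.5-fold or more (33.6% of all genes were) and 1 was higher by as much (24% of all genes). At 2-fold, 39 members were lower (19.7% of all genes) and 0 higher (15.7%). Each of the 4 parts of the knockout-labelled section lay below each part of the other section for 82 members (42.8% of all genes), and above for 1 (31.6%). Relative to the median of all genes the members' median was -0.80, with 69 lower by 1.5-fold or more (26.6% of all genes).

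**Figure D1:**
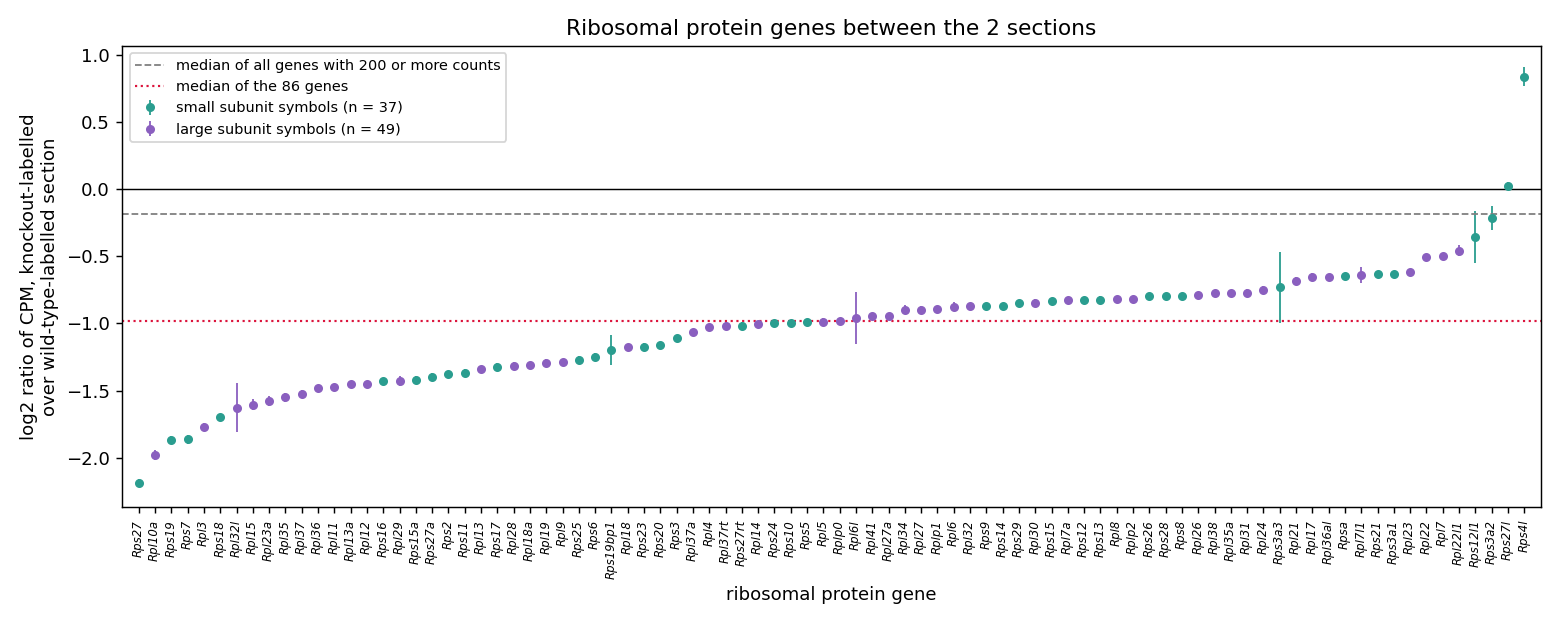
Log2 ratio of CPM, knockout-labelled section over wild-type-labelled section, for each of the 86 ribosomal protein genes in order of the ratio; points are coloured by subunit, bars are 95% intervals for counting error, and dashed and dotted lines are the medians of all genes (-0.18) and of the members (-0.98). The ratios run from -2.19 for Rps27 to 0.84 for Rps4l, with only Rps27l and Rps4l above 0.

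Rps27, a zinc-finger protein of the small subunit, had the lowest ratio, at 828 CPM (689 to 1121 over the 4 parts) in the wild-type-labelled section and 182 CPM (163 to 208) in the knockout-labelled section. Its log2 ratio was -2.19 (-2.21 to -2.16), 4.55-fold lower, and the parts were far from overlapping. Rpl10a, a large-subunit protein of the stalk beside the exit site of transfer RNA, followed with 425 and 108 CPM (-1.98). Rps19, mutated in Diamond-Blackfan anaemia, stood at 756 and 207 CPM (-1.87). Rps7, another small-subunit protein, stood at 472 and 130 CPM (-1.86). Rpl3, which lies near the peptidyl transferase centre, stood at 618 and 181 CPM (-1.77). Rps18, in the head of the small subunit, stood at 1006 and 310 CPM (-1.70). Rpl32l, a copy with only 581 and 424 counts, had a ratio of -1.63 (-1.81 to -1.44), and Rpl15 had a ratio of -1.60 (-1.65 to -1.56). The 8 lowest therefore came from both subunits. Each was lower in every part of the knockout-labelled section, as were 82 of the 86 members and 42.8% of all genes.

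At the other end Rps4l was the only member higher in the knockout-labelled section by 1.5-fold or more, at 48.0 CPM (43.5 to 51.4) against 85.8 CPM (82.0 to 89.5), a log2 ratio of 0.84 (0.77 to 0.91). It is an autosomal, transcribed pseudogene related to the X-linked Rps4x, which was listed at 0. Rps27l, a paralog of Rps27 that p53 activates, was level, with 341 and 346 CPM (log2 ratio 0.02, -0.01 to 0.05) and overlapping parts. Leaving the Paneth, villus enterocyte and defensin genes out of the totals gave Rps27l a ratio of -0.15. The next were Rps3a2 (-0.22) and Rps12l1 (-0.35), both pseudogenes whose parts overlapped. Of these, Rps12l1 held only 953 counts over both sections. Rpl22l1 (-0.46), Rpl7 (-0.50), Rpl22 (-0.51) and Rpl23 (-0.61) were lower in every part of the knockout-labelled section.

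Members with a known special role lay within the range of the rest. The 3 proteins of the acidic stalk that recruits elongation factors had close ratios, with Rplp0 at 1099 and 557 CPM (-0.98), Rplp1 at 4909 and 2646 CPM (-0.89) and Rplp2 at 1988 and 1129 CPM (-0.82). The Mdm2-binding pair differed from each other: Rpl5 stood at 654 and 330 CPM (-0.99, -1.01 to -0.96) and Rpl11 at 776 and 279 CPM (-1.48, -1.50 to -1.45). Rps6, the substrate of S6 kinase, stood at 457 and 192 CPM (-1.25). Rps27a, which is made as a fusion to ubiquitin, stood at 729 and 277 CPM (-1.40). Rpsa, also known as the laminin receptor, was among the less lowered members at 3505 and 2238 CPM (-0.65).

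Paralogs and close copies differed in the size of the difference more than in its sign. Rps27rt, a retrogene copy of Rps27, stood at 489 and 242 CPM (-1.02), less than the difference of Rps27 itself; the 2 genes share a run of 38 bases beginning within the TOP starts printed above, and how reads were divided between such copies was not given in the sources used here. Rpl37 had a ratio of -1.52 and its copy Rpl37rt of -1.02. Rpl22 and its paralog Rpl22l1 were close (-0.51 and -0.46), as were Rpl7 and Rpl7l1 (-0.50 and -0.64). Rpl36al, an autosomal relative of the X-linked Rpl36a, had a ratio of -0.65, and Rps19bp1 of -1.19. Rpl3l, the muscle paralog of Rpl3, held 21 and 14 counts, too few to compare.

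The symbols ending in -ps, which the rule left out, showed a difference of like size. Of 298 listed, 101 held 200 or more counts. Of these, 100 were below 0 (57.2% of all genes), 87 were lower by 1.5-fold or more (33.6%) and 0 were higher (24%). Together they took 1.42% of counts in the wild-type-labelled section and 0.765% in the knockout-labelled section (log2 ratio -0.89). They held 68.3% of the counts of Rps2 and its copies and 65.4% of those of Rpl10a, and how reads were assigned between a member and its copies was not tested. Adding each member's copies to it left the summed ratio at -0.96 and the count of members lower by 1.5-fold or more at 79, but moved Rpl10a from -1.98 to -1.56 and Rps18 from -1.70 to -1.16. The copy with the most counts of each of the 4 X-linked genes was lower as well: Rpl39-ps stood at 140 and 24.7 CPM (-2.50), Rpl10-ps3 at 565 and 259 CPM (-1.13), Rpl36a-ps2 at 197 and 96.1 CPM (-1.04) and Rps4x-ps at 318 and 170 CPM (-0.90). The other copies of Rpl10 and Rpl36a with 200 or more counts were less lowered. They ran from -0.97 for Rpl10-ps6 to -0.26 (-0.54 to 0.03) for Rpl10-ps1.

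To describe the genes across the tissue, each section was divided into squares of 25 position units a side with 20 or more spots and 5000 or more counts, which gave 825 squares in the wild-type-labelled section and 1340 in the knockout-labelled section. A square covers many cells of several types. The share of ribosomal protein counts ran from 3.15% to 27.0% over squares of the wild-type-labelled section (median 6.74%) and from 1.09% to 7.41% over squares of the knockout-labelled section (median 3.47%). The ranges overlapped, with 776 squares of the latter at or above the lowest of the former. Likewise 556 squares of the former lay at or below the highest of the latter. Only 9 squares of the latter exceeded the median of the former, and 2 squares of the former fell below the median of the latter. Low and high squares of the knockout-labelled section formed alternating bands.

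**Figure D2:**
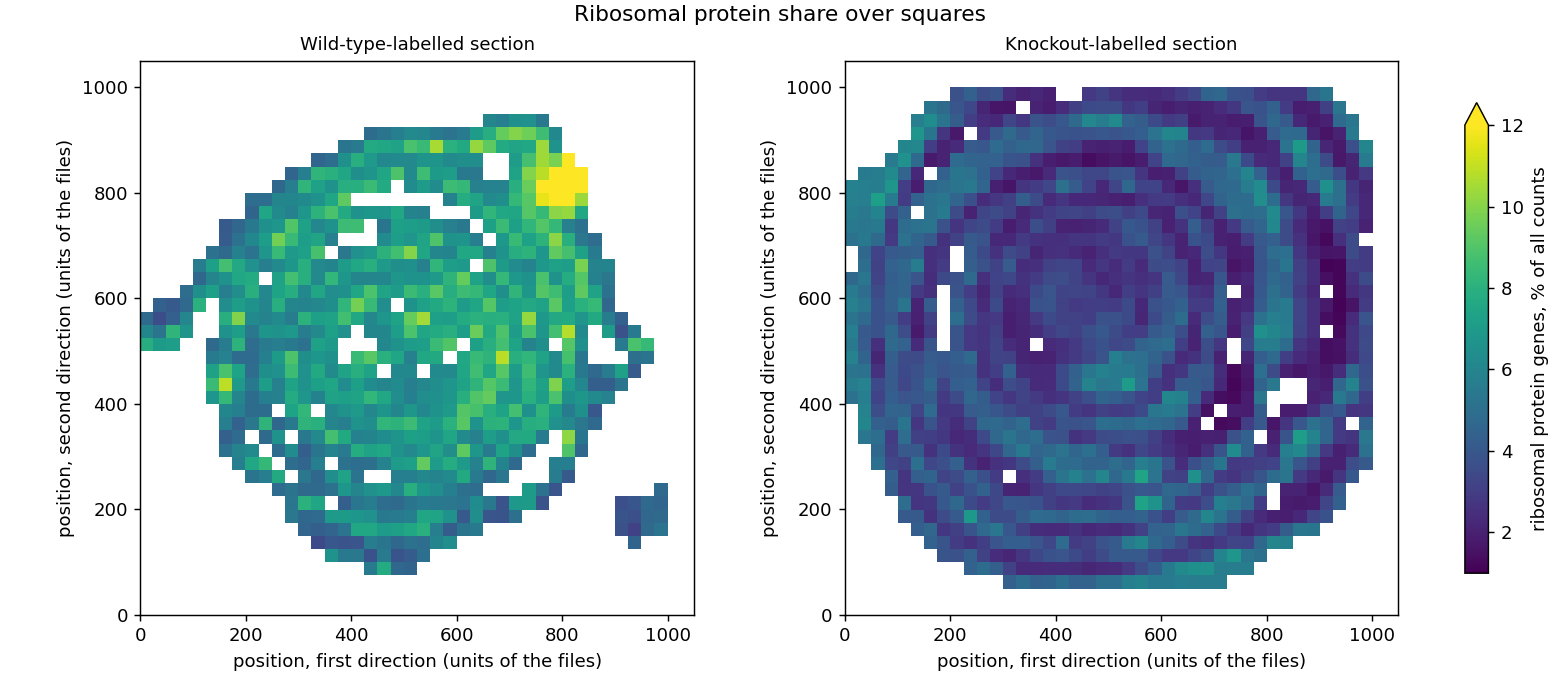
Ribosomal protein share of counts in each square, by position along both directions of the array in the units of the files, for the wild-type-labelled section (left) and the knockout-labelled section (right); both maps have 1 colour scale, which saturates at its upper end. A compact group of squares at the upper right of the wild-type-labelled section reaches 27.0%, and the knockout-labelled section shows bands between 1.09 and 7.41%.

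In each section the 10% of squares with the highest share of a marker list were taken as a class: proliferation genes, villus enterocyte genes, Paneth cell genes for the crypt base, and smooth muscle genes. This gave 82 squares per class in the wild-type-labelled section and 134 in the knockout-labelled section, and a square could be in more than 1 class (20 crypt squares were also muscle squares in the former, 50 in the latter). The classes are ranges within a section, not the same tissue in both. Villus-rich squares held 0.383% villus enterocyte counts in the wild-type-labelled section and 7.84% in the knockout-labelled section, where even the crypt-rich squares held 2.67%. Crypt-rich squares held 24.1% and 1.94% Paneth counts, and the average square of the wild-type-labelled section held 11.5%. They are Paneth-rich squares, not whole crypts. In the wild-type-labelled section they held 0.0501% of counts from 12 crypt stem cell genes against 0.0650% over all squares. Their proliferation share there was 0.174% against 0.273%. In the knockout-labelled section the stem cell share was 0.126% against 0.0749% and the proliferation share 0.171% against 0.139%. Proliferation-rich squares held 0.398% and 0.266% proliferation counts.

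The summed share of ribosomal protein genes was highest in proliferation-rich squares in both sections, and the sections differed most in the villus-rich squares. The 86 genes took 8.82% of counts in proliferation-rich squares of the wild-type-labelled section, 7.75% in villus-rich, 5.48% in muscle-rich and 4.85% in crypt-rich squares. In the knockout-labelled section they took 5.50% in proliferation-rich squares, 4.69% in muscle-rich, 4.61% in crypt-rich and 1.94% in villus-rich squares. Over the position parts with enough squares of a class, the share in the wild-type-labelled section was 8.13 to 9.63%, 7.20 to 7.96%, 4.92 to 6.68% and 4.37 to 5.61% in that order. In the knockout-labelled section the part ranges were 4.97 to 5.97% for proliferation-rich, 4.46 to 5.07% for muscle-rich, 3.98 to 5.36% for crypt-rich and 1.88 to 2.29% for villus-rich squares. The muscle and crypt ranges overlapped within each section, and in the knockout-labelled section the proliferation range overlapped both, so those neighbours in the order are not separated. The proliferation and villus ranges were apart in both sections.

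**Figure D3:**
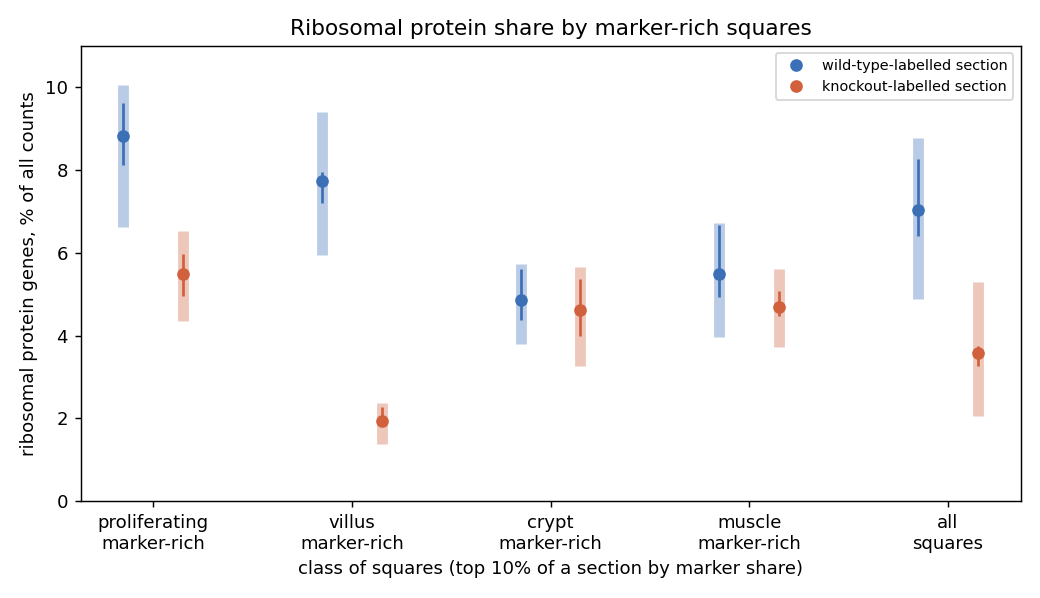
Ribosomal protein genes as a percentage of all counts in each class of squares and in all squares, by section; points are the summed share, thin lines the range over position parts, and wide bars the 10th to 90th percentile of squares. Villus-rich squares stand at 7.75% in the wild-type-labelled section and 1.94% in the knockout-labelled section, whereas crypt-rich squares stand at 4.85 and 4.61%.

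Within the knockout-labelled section the genes were lower in villus-rich squares than in every other class, and nearly all members shared this. Summed, the log2 ratio over villus-rich squares was 1.503 in proliferation-rich (2.84-fold), 1.27 in muscle-rich and 1.25 in crypt-rich squares. Of the 82 members with enough counts for these comparisons, 80 were higher by 1.5-fold or more in proliferation-rich squares (42.9% of all genes), 80 in muscle-rich (40.2%) and 80 in crypt-rich squares (37.3%). At 2-fold the counts were 79 (26.9%), 75 (24.7%) and 73 (21.3%). Rps2, at the entry of the messenger RNA channel, led in proliferation-rich squares, at 667 CPM against 184 CPM in villus-rich squares (log2 ratio 1.86). Rps26 (1.78), Rpsa (1.76), Rpl22 (1.74) and Rps24 (1.74) followed. Rps19 (1.59), Rpl13 (1.59), Rpl3 (1.58), Rpl5 (1.56) and Rpl12 (1.49) led in crypt-rich squares, and Rpl3 (1.60), Rpl14 (1.59), Rpl13 (1.54), Rpl12 (1.52) and Rps19 (1.49) in muscle-rich squares.

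Rps4l and Rps27l departed from this gradient in all 3 comparisons. Rps4l stood at 90.4 CPM in villus-rich, 90.2 in proliferation-rich, 82.1 in crypt-rich and 66.7 in muscle-rich squares of the knockout-labelled section, so it was not lower in villus-rich squares. Rps27l stood at 317, 395, 352 and 352 CPM, with log2 ratios over villus-rich squares of 0.32, 0.15 and 0.15. Its parent Rps27 went from 114 CPM in villus-rich to 265 CPM in proliferation-rich squares (1.21). Rpl7l1 also had small ratios, 0.87, 0.64 and 0.77 in proliferation-, crypt- and muscle-rich squares. Rps19bp1 had 1.17, 0.63 and 0.78.

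Within the wild-type-labelled section the order of classes was different and the ratios were smaller. The summed log2 ratio over villus-rich squares was 0.19 in proliferation-rich, -0.50 in muscle-rich and -0.68 in crypt-rich squares. Of 82 tested members 0 differed by 1.5-fold or more between proliferation- and villus-rich squares in either direction (1.2% of genes were higher and 1.79% lower). Of the 82, 55 were lower by 1.5-fold or more in crypt-rich squares (47.1% of genes) and 20 in muscle-rich squares (32% of genes). The median log2 ratio of members was -0.66 in crypt-rich and -0.45 in muscle-rich squares. Over all genes tested it was -0.56 and -0.40, so the members lay near the shift of all genes. With the class lists and defensin genes left out of each total, the summed crypt ratio was -0.25 and the summed muscle ratio -0.30. With squares of 100 units a side the proliferation ratio was -0.10. Among tested members Rps26 (-0.98) and Rps4l (-0.98) were lowest in crypt-rich squares, and Rps19bp1 (-0.18) and Rpl17 (-0.34) least lowered. In proliferation-rich squares Rps4l had the highest ratio, at 76.4 CPM against 53.5 CPM in villus-rich squares (0.51), and Rps27rt the lowest (-0.04). In muscle-rich squares Rps4l (-1.14) and Rps26 (-0.87) were lowest and Rpl17 (0.0023) highest. Members with too few counts to be tested lay beyond these, Rps12l1 at -1.11 in crypt-rich and -1.20 in muscle-rich squares and Rpl6l at 0.23 in muscle-rich squares.

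Set class against class, the section difference was large in villus-rich squares and small in crypt- and muscle-rich squares. The summed log2 ratio, knockout-labelled section over wild-type-labelled section, was -1.999 in villus-rich squares (3.996-fold lower), -0.68 in proliferation-rich, -0.23 in muscle-rich and -0.07 in crypt-rich squares, and -1.12 in squares of no class. In villus-rich squares 80 of 82 tested members were lower by 1.5-fold or more (38.9% of genes), the same 80 by 2-fold or more (27.9%), and Rps4l was higher (27.2% of genes). The counts lower by 1.5-fold or more were 53 in proliferation-rich squares (21.6% of genes), 21 in muscle-rich (12%) and 10 in crypt-rich squares (9.39%). Higher by as much were 0 members in proliferation-rich squares (23.2% of genes), 2 in muscle-rich (39.2%) and 2 in crypt-rich squares (47.4%). Over all genes the median log2 ratio was 0.54 in crypt-rich and 0.36 in muscle-rich squares, -0.02 in proliferation-rich and -0.22 in villus-rich squares. Scaled by the median of ratios within each class, the summed values were -0.61 in crypt-rich, -0.58 in muscle-rich, -0.67 in proliferation-rich and -1.78 in villus-rich squares. In the top 5% of squares by the Paneth list the crypt value was 0.04, so its sign is not settled on the scale of total counts. Villus marker content differed between the paired classes as given above. Villus-rich squares of the wild-type-labelled section also held 0.315% proliferation and 7.60% Paneth counts, against 0.0698% and 0.242% in the knockout-labelled section. Even the proliferation-rich squares of the knockout-labelled section held only 0.266% proliferation counts. The part of these marker differences in the section ratios was not tested.

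**Figure D4:**
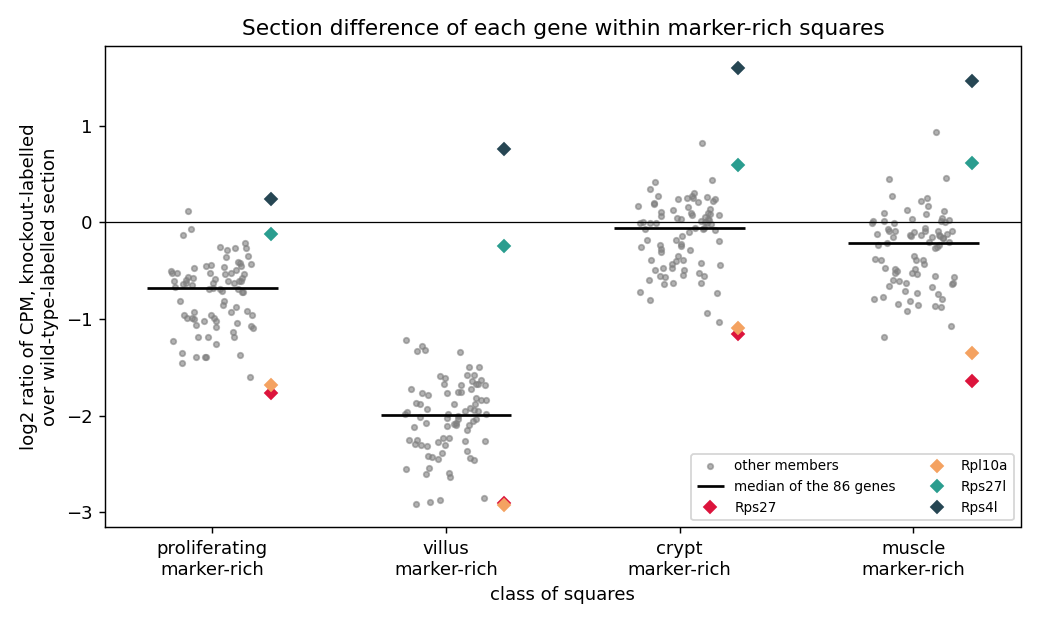
Log2 ratio of CPM, knockout-labelled section over wild-type-labelled section, for each of the 86 genes within each class of squares; grey points are members with sideways scatter for legibility, black lines are medians, and 4 members are drawn as diamonds. The medians are -0.68 in proliferation-rich, -1.995 in villus-rich, -0.06 in crypt-rich and -0.21 in muscle-rich squares, with Rps27 and Rpl10a low and Rps4l high in every class.

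Rps27 and Rpl10a were low and Rps4l high in each of the 4 classes. Rps27 had ratios of -2.91 in villus-rich, -1.77 in proliferation-rich, -1.65 in muscle-rich and -1.16 in crypt-rich squares. In crypt-rich squares it stood at 585 CPM in the wild-type-labelled section and 262 CPM in the knockout-labelled section. Rpl10a had ratios of -2.93, -1.69, -1.35 and -1.09 in the same order. Rps4l had 0.76, 0.24, 1.46 and 1.60, and Rps27l -0.24, -0.12, 0.61 and 0.59. Rplp1 stood at 3211 and 3202 CPM in crypt-rich squares but at 5384 and 1294 CPM in villus-rich squares. Rpl5 and Rpl11, both lower over the whole section, had 0.16 and -0.56 in crypt-rich squares.

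Along the full range of each list the same pattern was seen without a cut at 10%. From the lowest to the highest decile of squares by the proliferation list, the median ribosomal protein share went from 4.75 to 8.48% in the wild-type-labelled section and from 1.92 to 5.43% in the knockout-labelled section. By the villus list it went from 5.27 to 1.96% in the knockout-labelled section, while in the other section it went from 5.04 to 7.34%. By the Paneth list it went from 8.40 to 4.78% in the wild-type-labelled section and from 2.15 to 4.38% in the knockout-labelled section. Across squares the Pearson correlation with the proliferation list was 0.58 over 825 squares and 0.86 over 1340, with the villus list 0.30 and -0.85, with the Paneth list -0.66 and 0.54, and with smooth muscle -0.50 and 0.54. With the crypt stem cell genes, unlike the Paneth list, the correlation was 0.01 and 0.74. These describe squares of 1 section that share a denominator, and no test was made. The correlation with counts per spot was 0.04 and -0.15.

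**Figure D5:**
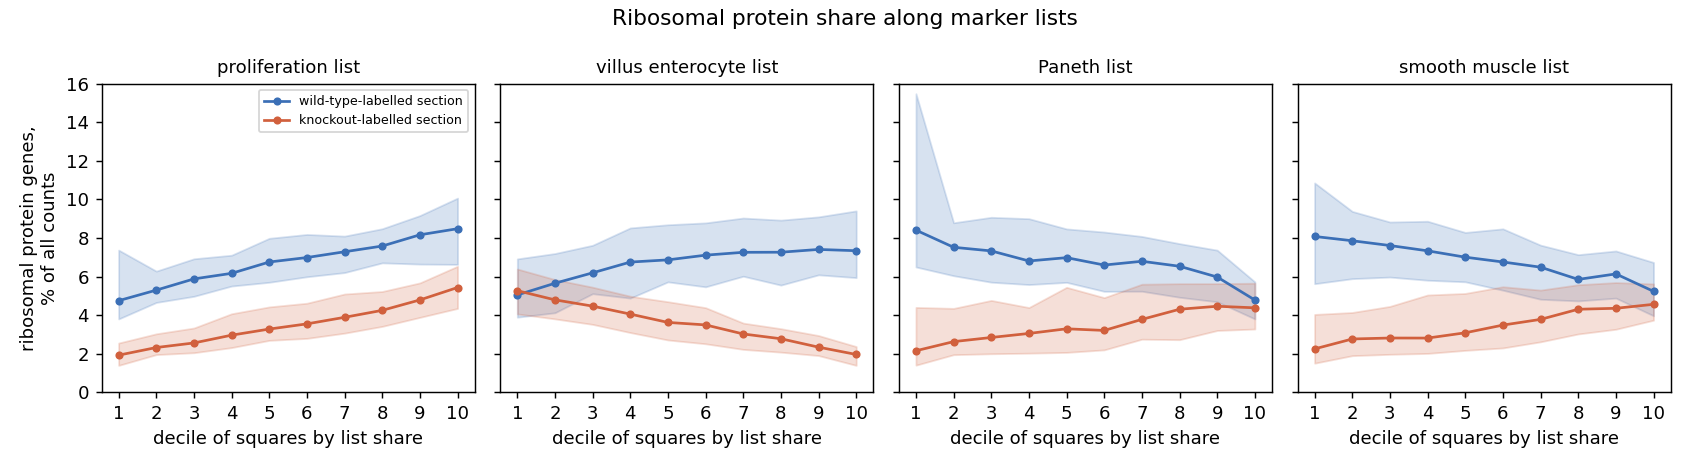
Median ribosomal protein share of counts (points) and 10th to 90th percentile of squares (bands) in deciles of squares ordered by the share of the proliferation, villus enterocyte, Paneth and smooth muscle lists, for each section. The share climbs with the proliferation list in both sections (4.75 to 8.48% and 1.92 to 5.43%), and the slopes along the other 3 lists are opposite between sections.

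The squares with the highest share in the wild-type-labelled section were rich in B cell genes. The 10 squares with the highest share of the B cell list, a set added after the map had been seen, held 0.508% B cell counts against 0.00491% in the other 815 squares. They were also the 10 squares with the highest ribosomal protein share, 14.9 to 27.0% (median 19.2%), and no other square passed 11.6%. Summed, the 86 genes took 21.0% of their 504111 counts against 6.86% elsewhere (3.06-fold, log2 ratio 1.61). Of the 86, 81 were higher there by 1.5-fold or more (27.8% of all genes) and 3 lower (32.3%). Rps27 led, at 6336 CPM against 757 CPM (3.07), followed by Rps23 at 3277 and 482 CPM (2.77), Rpl17 (2.69), Rpl34 (2.66) and Rps15a (2.56). The stalk genes stood at 0.88 for Rplp0, 0.70 for Rplp1 and 1.23 for Rplp2, below the members' median of 1.63. The 3 lower members were Rps4l (8 counts), Rps19bp1 (7 counts) and Rps27l, at 212 CPM against 343 CPM (-0.69). In the knockout-labelled section the 10 squares richest in the B cell list held 0.0111% B cell counts and 4.01% ribosomal protein counts against 3.57% elsewhere (log2 ratio 0.17). Those squares were scattered, at square positions 7 to 30 and 4 to 33 in the 2 directions. The 10 of the wild-type-labelled section lay together, at 30 to 33 and 31 to 34, so the 2 sets cannot be taken as like tissue. In the knockout-labelled set 1 member was higher by 1.5-fold or more (21.3% of genes) and 3 were lower (17.3%), each on 8 counts or fewer. Without the 10 squares of each section the summed section ratio was -0.94, with 76 members lower by 1.5-fold or more, and the ratio of Rps27 was -2.06.

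Other genes of translation and ribosome production were compared by lists whose shares of lower genes are read against the 33.6% of all genes lower by 1.5-fold or more. Shares of higher genes, in every list below, are read against the 24% of all genes higher by as much. Ribosome biogenesis factors, which process ribosomal RNA and assemble the subunits, had the lowest median: 62 of 64 listed were tested, 56 were lower by 1.5-fold or more and 0 higher, with a median log2 ratio of -1.37. They took 0.475% of counts in the wild-type-labelled section and 0.192% in the knockout-labelled section. Nop56, a core protein of the small nucleolar particles, stood at 160 and 34.1 CPM (-2.23) and Ppan at 84.4 and 20.2 CPM (-2.06), while Sdad1 (-0.31) and Emg1 (-0.19) were least lowered. Of 20 RNA polymerase I genes, which serve ribosomal RNA transcription, 14 were lower and 0 higher (median -0.84), from Polr1e (-2.23) and Polr1b (-1.85) to Ubtf (0.28) and Ttf1 (0.48).

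Among 19 elongation factors and other abundant TOP messenger RNAs, 13 were lower and 0 higher (median -0.84). Eef1g (-1.69) and Npm1 (-1.37) were lowest, whereas Eif4b stood at 203 and 205 CPM (0.01) and Fau, which encodes a ribosomal protein fused to a ubiquitin-like domain and is not named as one, at 509 and 541 CPM (0.09). Of 32 initiation factors 24 were lower and 1 higher (median -0.83). The RNA helicase Eif4a1 stood at 816 and 203 CPM (-2.01) and its paralog Eif4a2 at 71.2 and 120 CPM (0.75). Eif2b2 had a ratio of -2.43 and Eif4h of 0.28.

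The mTORC1 and S6 kinase pathway had no common direction, with 6 of 31 tested genes lower by 1.5-fold or more, 6 higher and a median of -0.09 (0.10 relative to the median of all genes). Myc, which drives transcription of ribosome genes, stood at 99.1 and 23.6 CPM (-2.07) and Akt1 had a ratio of -1.18. Max, the partner of Myc, stood at 61.7 and 268 CPM (2.12) and Mxi1, which competes with Myc for Max, at 21.3 and 74.1 CPM (1.80). Of 17 ribosome quality control and nascent chain factors 7 were lower and 2 higher (median -0.54), from Eif2ak4 (-1.26) and Abce1 (-0.96) to Srp54a (0.59) and Srp68 (1.05). The mitochondrial ribosomal proteins, which serve a separate ribosome, had 17 of 78 lower and 6 higher with a median of -0.24, near that of all genes. Mrps18b (-1.91) and Mrpl52 (-1.47) were their lowest and Mrps36 (1.28) and Mrpl34 (1.39) their highest.

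Members with an annotated TOP start had a median log2 ratio of -1.25 (15 genes, -2.19 to -0.63) and the other 46 members with a promoter entry -0.96 (-1.98 to 0.02). The 2 ranges overlapped over most of their length, and Rps7 and Rpl10a were among the lowest without a TOP start at the annotated position.

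The genes whose share followed the summed ribosomal protein share most closely across squares were found among 2826 other genes with 2000 or more counts in each section. In the wild-type-labelled section they were Eef1a1 (Pearson r 0.73), Gm45713 (0.73), Rack1 (0.69), Tpt1 (0.67), Hnrnpa2b1 (0.64), Gm8430 (0.64), Fau (0.63), Hspa8 (0.62), Ncl (0.61) and Cep85 (0.60). In the knockout-labelled section they were Rack1 (0.86), Gm2000 (0.81), Ptma (0.80), Wdr89 (0.80), Gm13680 (0.79), Hspa9 (0.79), Rps2-ps10 (0.79), Hnrnpa2b1 (0.79), Ppia (0.78) and Gpx1 (0.78). The median r of the 79 members with as many counts was 0.68 and 0.76, and that of the other genes 0.17 and 0.19. Rps4l was not among these 79. Among the 79, Rps12 (0.86 and 0.93) and Rps24 (0.87 and 0.91) followed the sum most closely in both sections, and Rpl7l1 (0.21 and 0.28) and Rps27l (0.27 and 0.27) least. The Paneth genes Mptx2 (-0.71) and Itln1 (-0.70) ran most opposite to the sum in the wild-type-labelled section, and the enterocyte genes Muc3 (-0.86) and Apoa1 (-0.86) in the knockout-labelled section.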

How the data were processed

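Each section came as a deposited matrix of whole-number counts of features by barcoded spots with spot positions. Per the labels' protocols, RNA of frozen sections was captured on an array, sequenced by Illumina, and spots under tissue were selected with BSTMatrix and BSTViewer; per the submitters' processing notes the genome build is GRCm38. The aligner, the treatment of multiply mapped reads and of molecular identifiers, and the length of a position unit were not given in the sources used here. No spot was left out, doublets do not apply to spots, and features with 1 symbol were summed.

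Levels are counts summed over spots, as CPM or as a percentage of all counts (7.02% rests on 2796067 counts). Level intervals are exact Poisson and ratio intervals exact conditional binomial (Clopper-Pearson), at 95%. Features with under 200 counts over the groups compared were left out of counts of genes. There was no test between sections. Scripts used Python 3.11.15, numpy, scipy and pandas and were checked on simulated counts. The members and lists were chosen with earlier results of these data known. Genes are named for the 8 highest and 8 lowest section ratios, the 5 highest and lowest class ratios of each section, fixed role groups and paralogs, the 3 fewest counts, the 2 highest and lowest of each list and the 10 most like the sum; others were chosen after their values were seen. Alternatives tried were scaling by the median of ratios, other totals, spot depth, square size, class size, class overlap, the stem cell list for crypt, added pseudogene counts, a higher count minimum and leaving out each position part.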

Additional observations from a re-analysis of the deposited data

How the results depend on the processing

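No paired analysis was possible because each genotype has 1 section. The lower summed and median ratios between sections kept their direction under all alternatives run. The summed log2 ratio was -0.79 and the median -0.80 when scaled by the median of ratios, and -1.14 and -1.15 when Paneth, villus and defensin genes were left out of the totals. The sum was -0.98 in spots with 300 or more counts, -0.96 with pseudogene counts added, and, in alternatives chosen after seeing the data, -0.92 in spots with 600 or more and under 1000 counts and -0.94 without the B-cell-rich squares. Leaving out 1 position part at a time gave -1.02 to -0.88. The count of members lower by 1.5-fold or more was 69 to 82. Class values moved beyond counting error in most settings and are given in the order crypt, proliferation and muscle over villus in the wild-type-labelled section, the same in the knockout-labelled section, then the section ratio in crypt, proliferation, villus and muscle squares. With squares of 50 units they were -0.62, 0.078 and -0.32, then 1.01, 1.24 and 1.10, then -0.18, -0.65, -1.81 and -0.39. With squares of 100 units they were -0.75, -0.10 and -0.60, then 0.60, 0.69 and 0.58, then -0.18, -0.74, -1.53 and -0.36. In the top 5% of squares they were -0.74, 0.23 and -0.47, then 1.46, 1.78 and 1.43, then 0.042, -0.61, -2.16 and -0.25. In the top 20% they were -0.49, 0.13 and -0.40, then 1.08, 1.25 and 1.08, then -0.27, -0.71, -1.84 and -0.36. In squares of 1 class only they were -0.60, 0.23 and -0.32, then 1.13, 1.503 and 1.201, then -0.21, -0.67, -1.94 and -0.42. Without the class lists and defensins in the total they were -0.25, 0.13 and -0.30, then 1.22, 1.44 and 1.22, then -0.57, -0.74, -2.04 and -0.52. With crypt squares chosen by the stem cell list the 3 crypt values were -0.10, 1.45 and -0.44. Scaled by the median of ratios within the class, an alternative chosen after seeing the data, the section ratios were -0.61, -0.67, -1.78 and -0.58. Without the B-cell-rich squares the muscle values were -0.54 in the wild-type-labelled section and -0.19 between sections. The reversals were proliferation over villus in the wild-type-labelled section with squares of 100 units, the crypt section ratio in the top 5%, and Rps27l, at -0.15 with the altered total; the cause was not tested. Among the 16 named section ratios these alternatives reversed 1 of 110 values. Depth limits Rps3a3, Rpl6l, Rps12l1 and Rpl32l most, and intervals do not cover differences between animals.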
